A study of Homo sapiens with 4 samples.

Results

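Heat shock proteins and their co-chaperones were followed in OVSAYO cells, a line established from human ovarian cancer, on 4 single-colour Agilent arrays. The genes were taken from a list of 43 by gene name, as families of molecular chaperones with their cofactors and the heat shock factors, and probes were assigned to them through the transcript accession of each spot. A probe was found for 42 of the 43, out of 17721 genes with a symbol on the array, and HSPA1B had no matched spot. The 42 genes had 67 probes, 66 of them with 1 spot per array. NS-si cells, the control cells, carried a negative control siRNA, labelled a scramble siRNA, and Sp1-si or Sp1-silenced cells a pool of siRNAs against the transcription factor Sp1. After 40 h, cells of both kinds were cultured for another 4 h with 0.5 mM CoCl2, a hypoxia-mimicking agent (NS-si → CoCl2 and Sp1-si → CoCl2), or had no such exposure according to the labels. A legend of the study gives a shorter culture before exposure and names a vehicle control, and the labels were followed here. Each of the 4 conditions was 1 array, so no test was possible, and the only error that could be given is the SD between spots of a probe. The comparisons ask how the cells' response to CoCl2 depends on Sp1.

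Chaperones bind unfolded or partly folded proteins. HSP70 proteins cycle between ATP and ADP states, in which J-domain (DNAJ) proteins deliver clients and stimulate the ATPase, and HSP110 and BAG proteins exchange the nucleotide. HSP90 acts later on clients such as kinases and steroid receptors, with STIP1 as the adaptor from HSP70, and small heat shock proteins hold unfolding proteins without ATP. In stressed cells the transcription factor HSF1 binds heat shock elements, which are repeats of a short unit in alternating orientation, and drives many of these genes. Cobalt ions stabilise hypoxia-inducible factors by blocking the enzymes that mark them for degradation.

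The promoters of 6 members are shown first, because the elements in them can be set beside the array values that follow. For each, the 250 bases before a RefSeq transcription start in GRCh38.p14 are given 5′ to 3′ on the strand of the gene, with capitals on every match to GAANNTTC or TTCNNGAA, the smallest pairs of heat shock units. Only windows with such a match are shown, and windows of other starts of DNAJB1 and DNAJB4, which had none, were left out. HSPA6, HSPA1A, DNAJB1 and DNAJB4 had higher signals with CoCl2 in both kinds of cells, CHORDC1 passed 2-fold in NS-si cells, and HSPA8 is a constitutive gene with a ratio near 0.
HSPA6, chr1:161524290-161524539, plus strand: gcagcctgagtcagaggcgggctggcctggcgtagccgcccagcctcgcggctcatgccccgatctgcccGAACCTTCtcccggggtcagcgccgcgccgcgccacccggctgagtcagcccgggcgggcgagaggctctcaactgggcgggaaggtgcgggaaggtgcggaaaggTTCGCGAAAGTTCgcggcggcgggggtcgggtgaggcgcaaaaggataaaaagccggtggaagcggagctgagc
HSPA1A, chr6:31815293-31815542, plus strand: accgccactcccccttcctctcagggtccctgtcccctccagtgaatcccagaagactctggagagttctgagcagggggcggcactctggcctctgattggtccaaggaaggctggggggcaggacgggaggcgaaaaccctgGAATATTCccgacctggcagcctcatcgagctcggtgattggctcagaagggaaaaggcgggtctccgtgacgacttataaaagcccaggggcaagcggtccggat
DNAJB1, chr19:14518398-14518647, minus strand: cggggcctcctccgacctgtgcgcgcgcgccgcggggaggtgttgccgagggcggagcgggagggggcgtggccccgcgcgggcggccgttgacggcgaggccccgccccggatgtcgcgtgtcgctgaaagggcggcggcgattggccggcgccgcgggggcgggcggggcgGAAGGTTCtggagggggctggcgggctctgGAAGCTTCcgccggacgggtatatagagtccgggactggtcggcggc
DNAJB4, chr1:78004689-78004938, plus strand: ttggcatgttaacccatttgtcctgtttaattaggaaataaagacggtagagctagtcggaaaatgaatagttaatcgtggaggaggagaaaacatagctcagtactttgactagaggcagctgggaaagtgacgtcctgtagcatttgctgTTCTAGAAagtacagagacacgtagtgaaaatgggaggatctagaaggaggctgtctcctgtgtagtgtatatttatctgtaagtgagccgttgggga
CHORDC1, chr11:90223050-90223299, minus strand: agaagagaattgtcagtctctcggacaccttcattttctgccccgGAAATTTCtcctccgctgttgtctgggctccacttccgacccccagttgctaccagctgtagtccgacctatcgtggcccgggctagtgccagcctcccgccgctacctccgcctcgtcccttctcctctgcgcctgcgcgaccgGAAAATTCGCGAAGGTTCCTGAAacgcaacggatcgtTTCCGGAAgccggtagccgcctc
HSPA8, chr11:123062137-123062386, minus strand: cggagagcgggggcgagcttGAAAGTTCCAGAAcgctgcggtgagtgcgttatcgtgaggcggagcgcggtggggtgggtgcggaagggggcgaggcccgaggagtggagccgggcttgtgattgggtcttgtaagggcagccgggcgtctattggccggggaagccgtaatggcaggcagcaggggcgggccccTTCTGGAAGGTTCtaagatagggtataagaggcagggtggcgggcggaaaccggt

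A full heat shock element was searched for as 3 NGAAN units in alternating orientation, which contains both pairs of units, on both strands of the 250 bases. It was found in 8 of the 39 member genes with a window (20.5%) and in 0.557% of all genes with one. By windows, of which a gene can have several, it was in 8 of 56 against 0.441% of all 35116. The 8 genes were HSPA6, HSPA8, HSP90AA1, HSP90AB1, HSPD1, DNAJB6, SERPINH1 and CHORDC1. Either pair of units was found in 21 of the 39 member genes (53.8%), against 14.0% of all genes, and in 37.5% of the member windows against 11.6% of all windows. By itself GAANNTTC was in 46.2% of the member genes and 7.05% of all genes, and TTCNNGAA in 30.8% and 8.12%. Of the 7 genes raised by CoCl2 in both kinds of cells, HSPA6 held the full element, HSPA1A, HSPA1L, DNAJB1 and DNAJB4 held a pair, and no match lay in the windows of BAG3 and HSPH1. The full element was thus in 1 of these 7 and 8 of all 39 members, and either pair in 5 of the 7 and 21 of the 39. HSPA1L is read from the opposite strand beside HSPA1A, and the match counted for both genes is the same stretch of DNA. HSPA8 held the full element 2 times, as its sequence above shows. The GC box GGGCGG, the kind of site that Sp1 binds, was in 84.6% of the member genes and 46.2% of all genes, or 42 of the 56 member windows and 42.6% of all windows. The core of the hypoxia response element, ACGTG, was in 28.2% of the member genes and 21.7% of all genes, or 14 of the 56 member windows and 18.5% of all windows. Its variant GCGTG was in 43.6% of the member genes and 36.2% of all genes, or 24 of the 56 member windows and 32.2% of all windows. HSPA14, HSPB2, CRYAB and HSF1 had no window. These are matches of letters, and binding was not measured.

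Array values are given as relative signals, on a scale where the 75th percentile of each array is 1000. Signals of different probes cannot be compared as amounts of RNA, so each probe is read across the 4 arrays only. A log2 ratio is the difference of 2 such values, and the figure after ± is the SD between spots of that ratio, taken from the 10-spot probes of like signal where a probe had 1 spot. A ratio of at least 1 in size on the log2 scale, which is 2-fold, was counted as called. The RNA came from whole cultures, so more expressing cells and more RNA per cell cannot be told apart.

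The 4 arrays lay on 1 slide and were scanned together, with 75th percentiles of 977 to 1287 intensity units before scaling. SP1 itself had relative signals of 484 with NS-si, 35.6 with Sp1-si, 439 with NS-si → CoCl2 and 30.1 with Sp1-si → CoCl2, so both arrays labelled Sp1-si carried the lower signal of the targeted gene. All 5 epithelial markers and all 3 clear cell carcinoma markers were well above background on the 4 arrays, and so were CD3E and CD14 of the leukocyte list and VWF of the endothelial list, whereas PTPRC, PECAM1 and CDH5 were on none. The summed relative signal of the leukocyte markers was 330.2 to 416 and that of the endothelial markers 40.8 to 56.2 on the 4 arrays. The summed relative signal of the fibroblast markers COL1A2 and DCN was 93.6 and 92.8 in the NS-si arrays without and with CoCl2 and 21.9 and 24.9 in the Sp1-si arrays. Of the members, 39 had their main probe, the one with the highest mean signal, well above background on all 4 arrays. HSPB3 was so on 3 arrays, HSPB8 on 2 and HSPB7 on 0.

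With CoCl2, a set of chaperone genes led by HSPA6 had signals more than 2-fold higher in both kinds of cells. In NS-si cells 9 of 39 member genes were called higher, where 3.77% of the 14282 genes on all 4 arrays were. None of the 39 was called lower, against 3.14% of all genes. The count higher was 7 with the percentile over probes above background, quantile normalization, the authors' value table or normexp, and without scaling 6 were higher and 1 lower while the median of all probes shifted by -0.23. In Sp1-si cells 7 of 39 were higher and 0 lower, against 3.38% and 3.71% of all genes, and 10 were higher without scaling, where all probes shifted by 0.23. The median log2 ratio of the members was 0.33 in NS-si cells (all genes 0.002) and 0.33 in Sp1-si cells (all genes -0.003). Above 0 lay 27 of the 39 ratios in control and 30 in Sp1-silenced cells. The 7 genes called in Sp1-si cells, HSPA6, HSPA1A, HSPA1L, HSPH1, DNAJB1, DNAJB4 and BAG3, were all among the 9 of NS-si cells, and HSPA13 and CHORDC1 were the other 2. How many of all genes were called in both kinds of cells was not counted, so this overlap has no share beside it. The ratios in control and Sp1-silenced cells share no array. Over the 39 genes they had a Pearson r of 0.93, over the 38 without HSPA6 0.90, and over all 14282 genes 0.70, with the slide, the scan and the scaling in common.

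**Figure D1:**
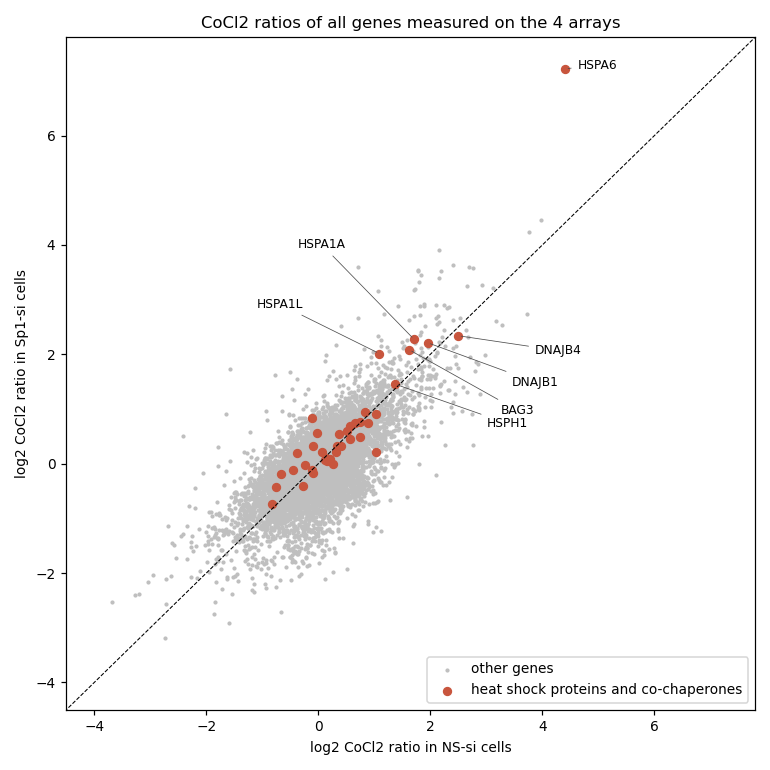
Each point is 1 of 14282 genes, with its log2 CoCl2 ratio in NS-si cells on the x axis and in Sp1-si cells on the y axis, from 1 array per condition. Members are red and other genes grey, and the dashed line marks equal ratios; HSPA6 lies at 4.41 and 7.22, outside the cloud, and the 7 genes called in both kinds of cells are named.

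Of the 9 HSP70 genes on all arrays, HSPA6, HSPA1A, HSPA1L and HSPA13 passed 2-fold with CoCl2 in NS-si cells, and all of these but HSPA13 in Sp1-si cells too. HSPA6, an HSP70 that is nearly silent in most unstressed cells, had relative signals of 30.6 with NS-si, 37.8 with Sp1-si, 649 with NS-si → CoCl2 and 5640.0 with Sp1-si → CoCl2. Both untreated arrays were low and close to each other, and the 2 treated arrays were far apart. The log2 ratio to untreated cells was 4.41 ± 0.07 in control cells and 7.22 ± 0.07 in Sp1-silenced cells, which is 21.2-fold and 149-fold. With normexp on the median signals, which adds an offset to dim signals, the log2 ratios were lower, at 2.89 and 5.77. It was the highest CoCl2 ratio of all 14282 genes in each kind of cell. The RNA of HSPA7, a closely related transcribed pseudogene with no matched spot, may also reach this probe and was not separated.

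HSPA1A, the main heat-inducible HSP70, had 3 probes. The main one read 1349 with NS-si, 1091 with Sp1-si, 4416 with NS-si → CoCl2 and 5277 with Sp1-si → CoCl2. The log2 CoCl2 ratio of this probe was 1.71 ± 0.03 in control and 2.27 ± 0.03 in Sp1-silenced cells, and that of another, A_24_P682285, was 1.84 and 2.55. The third, A_23_P111132, read 502, 286, 506 and 679 in the same order. It therefore had a ratio of 0.01 ± 0.04 in NS-si cells, where both other probes were above 1.7, and of 1.25 ± 0.04 in Sp1-si cells. HSPA1B encodes the same protein from a near-identical neighbouring gene, and signals of the 2 genes cannot be told apart here. HSPA1L, which is best known from the testis, read 78.2 with NS-si, 50.6 with Sp1-si, 167 with NS-si → CoCl2 and 205 with Sp1-si → CoCl2. Both treated arrays were above both untreated ones, with ratios of 1.09 ± 0.07 and 2.01 ± 0.07, the first of which was 0.87 without scaling and 0.75 with normexp.

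HSPA8, the constitutive cytosolic HSP70 whose promoter is shown above, had ratios of 0.16 ± 0.03 in control and 0.06 ± 0.03 in Sp1-silenced cells on its main probe. Its relative signals were 196323, 178769, 218687 and 185939 for NS-si, Sp1-si, NS-si → CoCl2 and Sp1-si → CoCl2. The differences between these arrays were small beside those of HSPA6. HSPA9, the mitochondrial HSP70, had ratios of 0.12 and 0.07. HSPA2 had -0.02 and 0.55, HSPA14, a ribosome-associated HSP70, 0.37 and 0.55, and HSPA12A, a distant family member, -0.66 and -0.20. HSPA13, an HSP70 of microsomes, gave different answers by probe. Its main probe read 3473, 5028, 7076 and 5853 in the same order, with a ratio of 1.03 ± 0.03 in control and 0.22 ± 0.03 in Sp1-silenced cells. The second probe read 720.0, 317, 871 and 451, with ratios of 0.27 ± 0.04 and 0.51 ± 0.04. The call of HSPA13 in NS-si cells thus rested on 1 of its 2 probes, and that probe was at 0.80 without scaling and at 0.94 to 0.996 with the percentile over probes above background, quantile normalization and the authors' table.

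**Figure D2:**
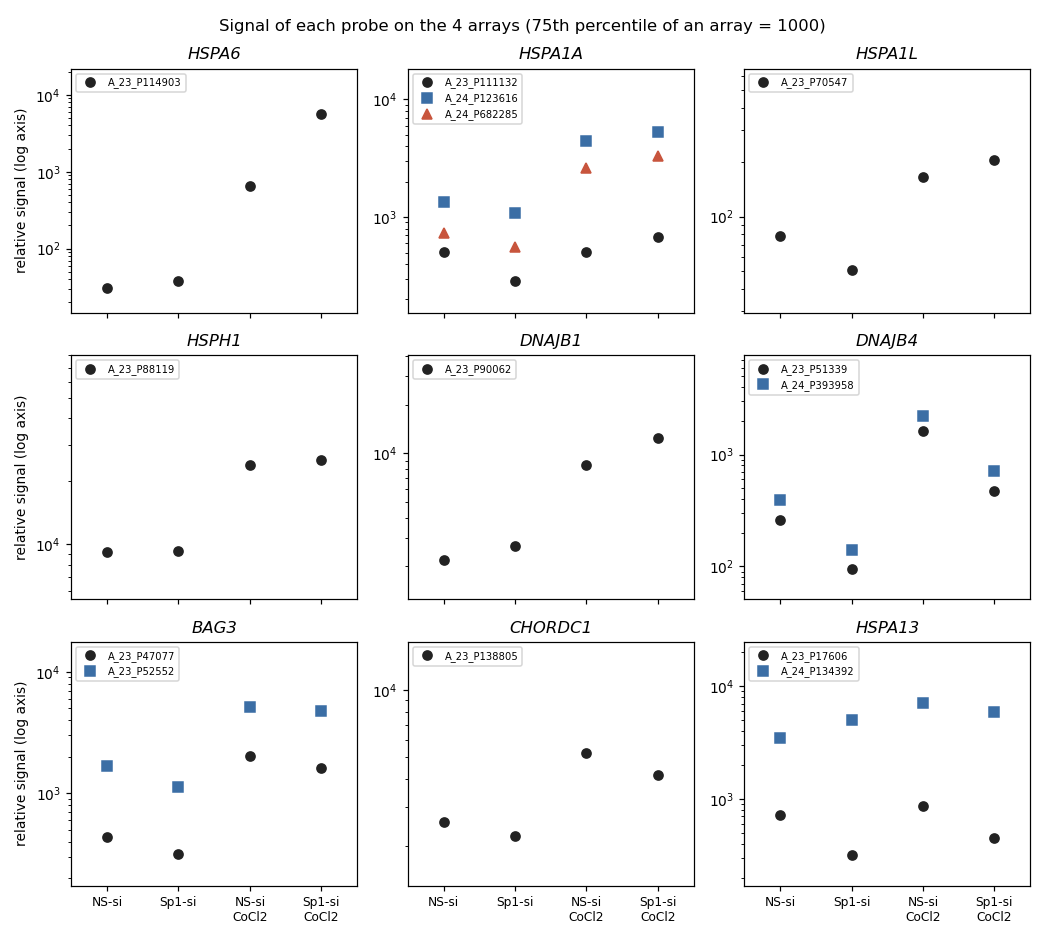
Relative signal (log axis, 75th percentile of an array = 1000) of every probe of the 9 genes called higher with CoCl2 in NS-si cells, on the arrays NS-si, Sp1-si, NS-si with CoCl2 and Sp1-si with CoCl2. Each marker shape is 1 probe, a point is 1 array and no error bars are drawn; HSPA6 climbs from 30.6 and 37.8 to 649 and 5640.0, and 1 of the 3 HSPA1A probes stays at 502 and 506 in NS-si cells.

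The HSP110 proteins are HSP70 relatives that exchange the nucleotide of HSP70. HSPH1 was at 9211 in control and 9284 in Sp1-silenced cells, and at 23908 and 25418 in the corresponding cells with CoCl2. The 2 untreated arrays and the 2 treated arrays each lay close together. The CoCl2 ratios were 1.38 ± 0.03 and 1.45 ± 0.03, and they differed by 0.08 ± 0.03. HSPA4, of the same family, had -0.27 ± 0.03 and -0.41 ± 0.03, with relative signals of 31229, 26143, 25829 and 19674. HSPA4L had 0.06 ± 0.04 and 0.21 ± 0.04.

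On their main probes, the 2 cytosolic HSP90 genes were moderately higher with CoCl2 and not called. HSP90AA1, the inducible form, had 4 probes, which gave ratios between 0.66 and 0.74 in NS-si cells. In Sp1-si cells the same 4 probes ranged from -0.64 to 0.75. Its main probe read 18371 with NS-si, 21277 with Sp1-si, 28957 with NS-si → CoCl2 and 35795 with Sp1-si → CoCl2, with both treated arrays above both untreated ones. The only member probe with 10 spots, A_23_P162874, read 16227, 19787.5, 27188 and 17282, so that Sp1-si → CoCl2 lay among the untreated arrays. Its ratios, with the SD of its own spots, were 0.74 ± 0.02 in control and -0.20 ± 0.01 in Sp1-silenced cells. A_24_P145377 read 23771, 27505, 37561 and 17624, with ratios of 0.66 ± 0.03 and -0.64 ± 0.03. This probe and A_32_P199252 are annotated to another transcript of the gene, and A_23_P162874 to the same one as the main probe. HSP90AB1, the constitutive form, had 0.56 ± 0.03 and 0.69 ± 0.03 on its main probe, which read 12573, 11389, 18511 and 18396.5. Its second probe read 3799, 3096, 6131 and 6399, with 0.69 ± 0.03 and 1.05 ± 0.03, whereas the third had 0.09 and -0.33. TRAP1, the mitochondrial HSP90, had 0.13 ± 0.03 and 0.10 ± 0.03.

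Of 4 other co-chaperones, CHORDC1 was called in NS-si cells. CHORDC1, an HSP90-binding protein, read 2571 with NS-si, 2230.4 with Sp1-si, 5252 with NS-si → CoCl2 and 4176 with Sp1-si → CoCl2, with ratios of 1.03 ± 0.03 and 0.90 ± 0.03. The second value lies just under the 2-fold line and the first just above it, and the first was 0.80 to 0.9996 under 5 alternatives, those without scaling and with the percentile over probes above background, quantile normalization, the authors' table and normexp. STIP1 had 0.75 ± 0.03 and 0.77 ± 0.03 on its main probe and 0.77 and 0.83 on the other. AHSA1, the activator of the HSP90 ATPase, read 3552, 3858, 4697 and 4849.8, with 0.40 ± 0.03 and 0.33 ± 0.03. SERPINH1, which folds collagen in the endoplasmic reticulum, had 0.89 ± 0.04 and 0.75 ± 0.04.

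The small heat shock proteins had no gene called with CoCl2 among the 5 measured on all arrays. HSPB1, the best known of them, read 19394 with NS-si, 13109 with Sp1-si, 17828 with NS-si → CoCl2 and 23360.4 with Sp1-si → CoCl2. The lowest array was untreated Sp1-si and the highest was treated Sp1-si. The CoCl2 ratio was -0.12 ± 0.03 in control and 0.83 ± 0.03 in Sp1-silenced cells, and the other 2 probes gave -0.05 and -0.02 against 0.87 and 0.84. CRYAB, a small heat shock protein of lens and muscle, read 236, 379, 182 and 432 in the same order, with -0.38 ± 0.07 and 0.19 ± 0.07. HSPB2 had 0.33 ± 0.31 and 0.33 ± 0.29 at signals near background, HSPB6 -0.10 ± 0.07 and -0.17 ± 0.07, and HSPB11, an intraflagellar transport protein listed under its older symbol, -0.11 ± 0.03 and -0.12 ± 0.03. Where a probe was not well above background on 1 side, only a bound is known. HSPB8 was at least 1.86-fold higher in NS-si → CoCl2 than in control cells and at least 1.40-fold lower in Sp1-si → CoCl2 than in Sp1-silenced cells. HSPB3 was at least 1.44-fold lower in NS-si → CoCl2 than in NS-si cells. These bounds leave out the SD between spots, which was 0.31 and 0.29 on the log2 scale at such signals.

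The mitochondrial chaperonin, made of HSPD1 (HSP60) and its lid HSPE1 (HSP10), stayed well within 2-fold. HSPD1 read 79821 with NS-si, 64523 with Sp1-si, 99500.4 with NS-si → CoCl2 and 75213 with Sp1-si → CoCl2 on its main probe. Its CoCl2 ratios were 0.32 ± 0.03 and 0.22 ± 0.03, and those of its second probe were 0.05 and -0.18. HSPE1 had 0.21 ± 0.03 and 0.08 ± 0.03.

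Of the 8 J-domain proteins, DNAJB1 and DNAJB4 were called in both kinds of cells. DNAJB1, the main HSP70 partner in the stress response, read 2179 with NS-si, 2679 with Sp1-si, 8428 with NS-si → CoCl2 and 12416.5 with Sp1-si → CoCl2. Both treated arrays were well above both untreated ones, with ratios of 1.95 ± 0.03 and 2.21 ± 0.03. DNAJB4, a close relative of DNAJB1, read 391 with NS-si, 141 with Sp1-si, 2210.0 with NS-si → CoCl2 and 715 with Sp1-si → CoCl2. Each Sp1-si array was below its NS-si partner, and the ratios to untreated cells were alike, 2.50 ± 0.04 and 2.34 ± 0.04. A second probe of DNAJB4 gave 2.65 ± 0.04 and 2.30 ± 0.04.

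DNAJB6, which holds back aggregation, and DNAJB2, best known from neurons, were not called on their main probes. DNAJB6 had 4 probes, 3 of which gave 0.52 to 0.65 in control and 0.61 to 0.73 in Sp1-silenced cells. The fourth, A_23_P385063, is annotated to another transcript of the gene and read 899, 572, 1940.0 and 1422 for NS-si, Sp1-si, NS-si → CoCl2 and Sp1-si → CoCl2, with ratios of 1.11 ± 0.03 and 1.31 ± 0.03. DNAJB2 had 0.84 ± 0.03 and 0.95 ± 0.03 on its main probe. The probe of another DNAJB2 transcript read 139, 107, 279 and 275, both treated arrays being above both untreated ones, with 1.01 ± 0.07 and 1.36 ± 0.07. DNAJA1 read 16471, 19674, 24296 and 27008, with 0.56 ± 0.03 and 0.46 ± 0.03. DNAJA2 had -0.09 ± 0.04 and 0.33 ± 0.04, DNAJA4 -0.46 ± 0.07 and -0.11 ± 0.07, and DNAJB5 -0.24 ± 0.04 and -0.02 ± 0.04.

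The 3 BAG proteins, which release clients from HSP70, went different ways. BAG3, which links HSP70 to autophagy, read 1671 with NS-si, 1119 with Sp1-si, 5143 with NS-si → CoCl2 and 4743 with Sp1-si → CoCl2. Its ratios were 1.62 ± 0.03 and 2.08 ± 0.03, and those of the second probe were 2.22 ± 0.04 and 2.34 ± 0.04. BAG1 read 4476, 6125, 7527 and 8586, with 0.75 ± 0.03 and 0.49 ± 0.03. BAG2, an inhibitor of the ubiquitin ligase CHIP, had lower signals with CoCl2, at -0.76 ± 0.03 and -0.43 ± 0.03, neither of them called.

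The heat shock factors themselves were not among the raised genes. HSF1, which is controlled mainly at the level of its protein, read 17322 with NS-si, 18194 with Sp1-si, 20779 with NS-si → CoCl2 and 18062 with Sp1-si → CoCl2, with ratios of 0.26 ± 0.03 and -0.01 ± 0.03. HSF2 read 1483, 2183, 837 and 1317 on its main probe. Both treated arrays were below their untreated partners, with ratios of -0.82 ± 0.03 and -0.73 ± 0.03, the lowest of the 39 members in each kind of cell. A dimmer second probe of HSF2 gave -0.16 ± 0.07 and -0.25 ± 0.07.

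**Figure D3:**
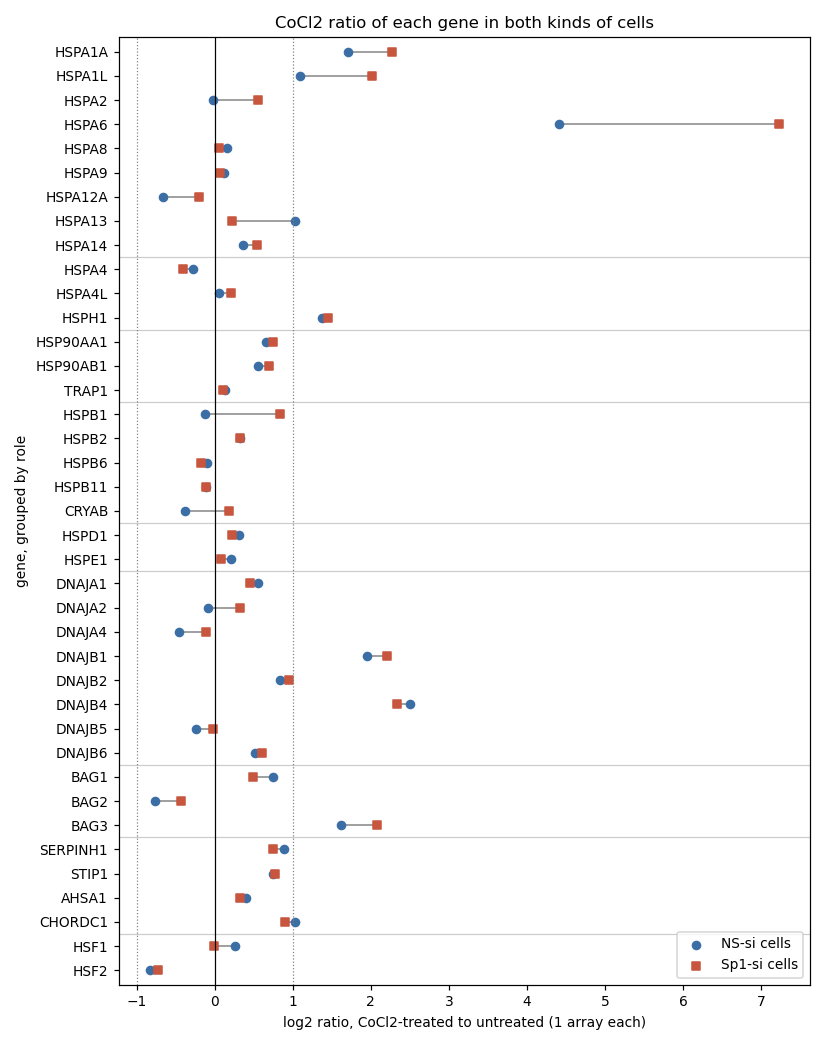
Log2 ratio of CoCl2-treated to untreated cells (x axis) for the 39 members measured on all 4 arrays, grouped by role from the HSP70 genes at the top to the heat shock factors at the bottom, with blue circles for NS-si and red squares for Sp1-si cells and dotted lines at 2-fold. Each symbol is the main probe on 1 pair of arrays and no error bars are drawn; HSPA6, DNAJB4, DNAJB1, HSPA1A, BAG3, HSPA1L and HSPH1 lie past 1 in both, and HSF2 is lowest at -0.82 and -0.73.

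Silencing of Sp1 without CoCl2 left most chaperone genes within 2-fold. Of the 39, 1 was called higher, where 5.88% of all genes were, and 2 lower, where 5.66% were, with a median log2 ratio of Sp1-si to NS-si cells of -0.10 (all genes -0.009). With CoCl2 in both arrays, 3 were higher against 7.04% of all genes and 3 lower against 7.71%, or 5 and 1 without scaling, which shifted all probes by 0.40. The 39 genes had a median of 0.05 (all genes -0.02), which was -0.11 when the probes of a gene were averaged. With the scaling used here, these counts lie near or below the shares of all genes. The 2 Sp1-si ratios share no array, and over the 39 members they had an r of 0.72, or 0.84 without HSPA6, against 0.82 over all genes.

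DNAJB4, DNAJB5 and HSPA4L were called without and with CoCl2, although HSPA4L with CoCl2 was at -0.84 without scaling. DNAJB4 had ratios of -1.47 ± 0.04 and -1.63 ± 0.04 from the signals given above, and its second probe had -1.45 and -1.80. HSPA4L, an HSP110 protein known from the testis, read 709 with NS-si, 271 with Sp1-si, 738 with NS-si → CoCl2 and 312 with Sp1-si → CoCl2, with ratios of -1.39 ± 0.04 and -1.24 ± 0.04. DNAJB5, a relative of DNAJB1, went the other way at 197, 576, 167 and 568, with 1.55 ± 0.04 and 1.76 ± 0.04. For HSPA4L and DNAJB5 the arrays sorted by siRNA alone, since CoCl2 moved neither by more than 0.24.

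SERPINH1 and CRYAB were called only in the comparison with CoCl2, where SERPINH1 was at -0.74 without scaling and CRYAB at 0.89 with normexp. SERPINH1 read 691 with NS-si, 346 with Sp1-si, 1281 with NS-si → CoCl2 and 582 with Sp1-si → CoCl2, with ratios of -0.999 ± 0.04 and -1.14 ± 0.04. The fibroblast markers COL1A2 and DCN, whose sums are given above, were also lower in both Sp1-si arrays, and their part in this result was not tested. CRYAB had 0.68 ± 0.07 and 1.25 ± 0.08 from the signals given above. HSPA6 had 0.30 ± 0.07 without CoCl2 and 3.12 ± 0.08 with it. HSPA13 was 0.53 ± 0.02 without CoCl2 on its main probe and -1.18 ± 0.04 on the other, so its direction was not settled. In the comparison with CoCl2, HSP90AA1 had 0.31 ± 0.02 on its main probe. Its other probes, A_23_P162874, A_24_P145377 and A_32_P199252, had -0.65 ± 0.02, -1.09 ± 0.02 and -0.53 ± 0.02. HSPA2 was at 7755 in control and 4316 in Sp1-silenced cells, and at 7666 and 6336 with CoCl2, a ratio of -0.85 ± 0.02 and then -0.27 ± 0.02. BAG2 had -0.82 ± 0.03 and -0.49 ± 0.03, and HSPB11 0.73 ± 0.03 both times. Near background, HSPB8 was at least 1.72-fold higher after Sp1 silencing without CoCl2 and at least 1.52-fold lower in the comparison with CoCl2, where HSPB3 was at least 1.52-fold higher. The SD between spots, 0.36 on the log2 scale at such signals, is left out of these bounds too.

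**Figure D4:**
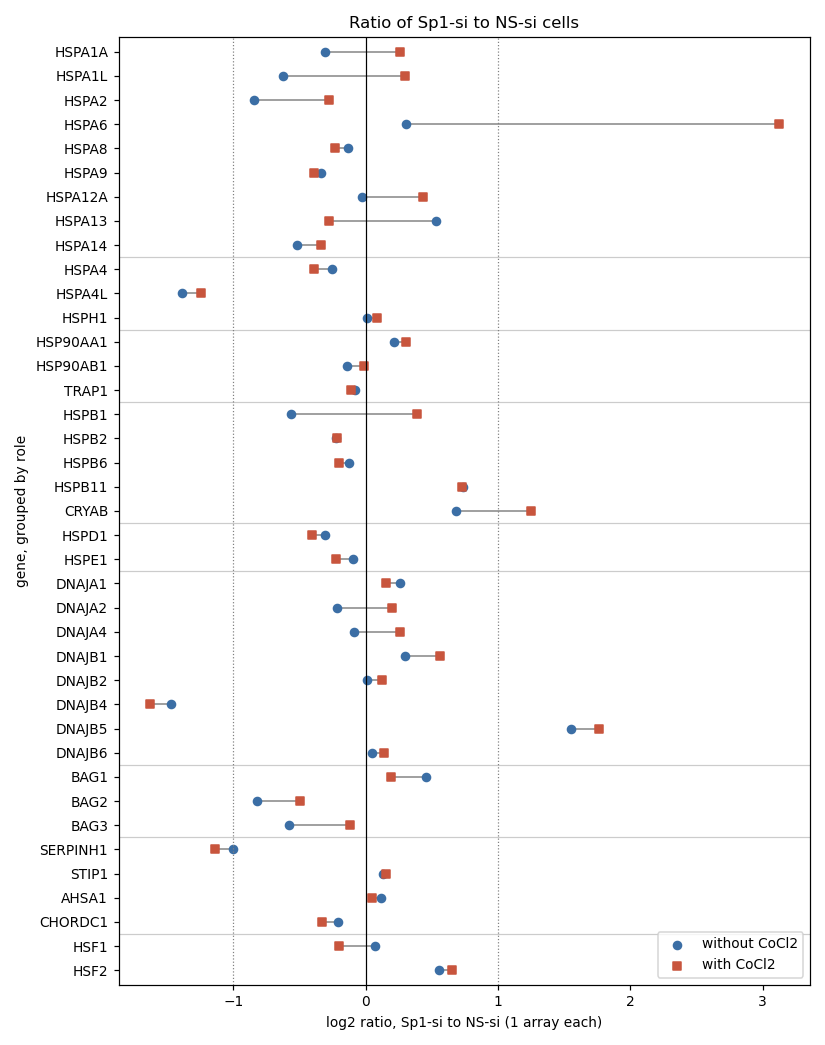
Log2 ratio of Sp1-si to NS-si cells (x axis) for the same 39 members, grouped by role, with blue circles for the arrays without CoCl2 and red squares for those with CoCl2 and dotted lines at 2-fold. Each symbol is the main probe on 1 pair of arrays and no error bars are drawn; DNAJB4 and HSPA4L lie below -1 and DNAJB5 above 1 in both, and HSPA6 moves from 0.30 to 3.12.

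The difference of the 2 CoCl2 ratios, Sp1-si minus NS-si, uses all 4 arrays. HSPA6 was the only main probe of a member past 1 with the arrays scaled to their 75th percentile. Without scaling 6 genes passed and with median scaling 3, where all probes shifted by 0.45 and 0.10. The shares of all genes under those 2 settings were not counted. With the 75th percentile, the difference of HSPA6 was 2.82 ± 0.10, the fourth highest of all 14282 genes, where 0.973% of all genes were called higher. None of the 39 was called lower on its main probe, against 2.89% of all genes. The median over the members was 0.09 (all genes 0.01). Next came HSPB1 at 0.96 ± 0.03 and HSPA1L at 0.92 ± 0.10, and the lowest was HSPA13 at -0.81 ± 0.03. Of the other genes raised in both kinds of cells, HSPH1, DNAJB1, DNAJB4 and BAG3 had differences of 0.08 ± 0.03, 0.26 ± 0.03, -0.16 ± 0.05 and 0.46 ± 0.04. Among other probes, A_23_P111132 of HSPA1A had 1.24 ± 0.05 and A_24_P145377 of HSP90AA1 -1.30 ± 0.03, while the main probes of these genes had 0.56 ± 0.04 and 0.09 ± 0.03. A_23_P162874 and A_32_P199252 of HSP90AA1 had -0.94 ± 0.03 and -0.66 ± 0.03, so its main probe alone was above 0.

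Agreement between probes of 1 gene varied by gene. For the 15 members with at least 2 probes on all 4 arrays, the median distance between the highest and the lowest log2 CoCl2 ratio was 0.17 in control and 0.40 in Sp1-silenced cells, against 0.22 and 0.30 over all 4977 such genes. In NS-si cells 6 of the 15 and in Sp1-si cells 5 of the 15 had a distance of at least 0.5. HSPA8 was one of them in Sp1-si cells, where a probe annotated to another transcript, A_24_P295745, gave 0.84 ± 0.03 and the other 3 gave -0.003 to 0.06. DNAJB4, HSPB1, DNAJA1 and STIP1 had probes within 0.16 of each other in both kinds of cells.

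**Figure D5:**
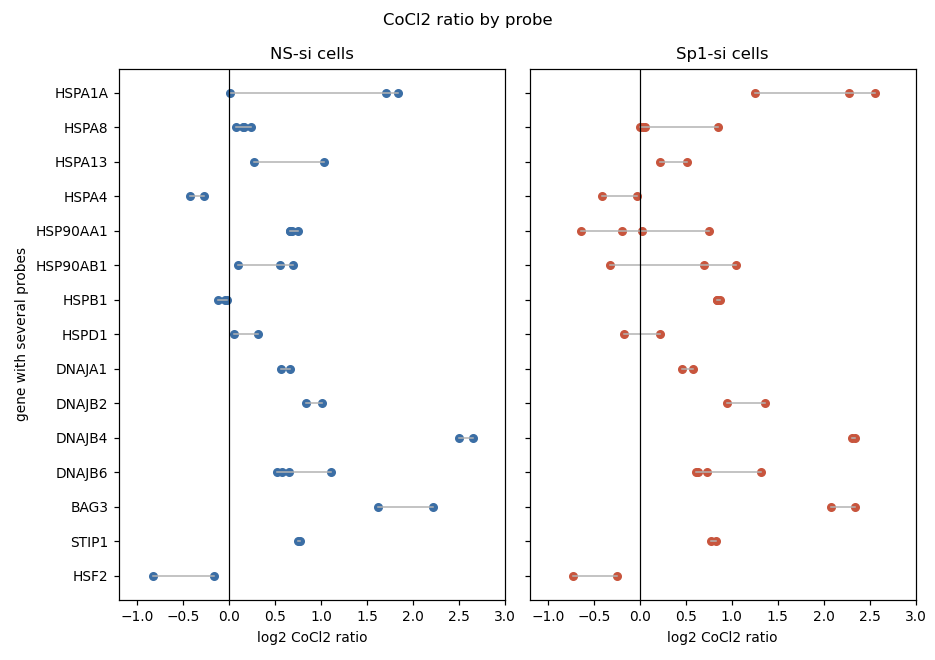
Log2 CoCl2 ratio (x axis) of every probe of the 15 members with at least 2 probes on all 4 arrays, in NS-si cells on the left and in Sp1-si cells on the right. Each point is 1 probe, joined by a line per gene, and no error bars are drawn; the 4 HSP90AA1 probes lie between 0.66 and 0.74 in control and between -0.64 and 0.75 in Sp1-silenced cells.

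Other chaperone systems are given for comparison, without a test. With CoCl2, 3.77% of all genes were called higher and 3.14% lower in NS-si cells, and 3.38% and 3.71% in Sp1-si cells. At these shares a list this short can hold no call, so 0 calls do not set it apart from other genes. Of the 8 subunits of TRiC, the cytosolic chaperonin for actin and tubulin, 0 were called with CoCl2, with medians of -0.07 in control and -0.03 in Sp1-silenced cells. The 6 subunits of prefoldin, which feeds TRiC, had 0 calls and medians of -0.21 and -0.02. A further 12 HSP90 co-chaperones had 0 calls and medians of 0.19 and 0.32, 9 measured HSP70 cofactors 0 calls and 0.18 and -0.05, and 7 mitochondrial partners and proteases 0 calls and -0.23 and -0.02. Of 10 chaperones of the endoplasmic reticulum, DNAJB9, a partner of HSPA5, was called in NS-si cells at 1.38, with 0.82 in Sp1-si cells, and HSPA5 itself was at 0.22 and 0.07. Of 5 other genes known as HSF1 targets, DEDD2 was called in both kinds of cells at 1.86 and 1.68, and UBB, a polyubiquitin gene, was called at 1.06 in control cells and had 0.63 in Sp1-silenced cells. The median of these 5 was 0.98 and 0.63. Between Sp1-si and NS-si cells, HSP90B1, the HSP90 of the endoplasmic reticulum, was called at 1.03 without CoCl2, and CDC37, which brings kinases to HSP90, and DNAJC3 at -1.03 and -1.33 with CoCl2.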

How the data were processed

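RNA of OVSAYO cells was labelled with Cy3 from 500 ng and hybridised to 4 arrays of 1 slide, 1 per condition. The authors deposited the intensities of Agilent Feature Extraction 10.5.1.1 per the file headers, after background subtraction and detrending and without normalization between arrays. The deposited value table equals these intensities times 1 constant per array. The array annotation uses an older build than the RefSeq tables (GRCh38.p14), so only promoter windows carry coordinates.

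Control spots and outlier spots were left out, log2 intensities, made here from the deposited values, were centred on each array's 75th percentile, with the mean taken over spots of the same probe. Well above background means that the scanner software called so at least 50% of a probe's spots on that array. It called 33081 to 34542 of the 43376 spots per array so, and none as saturated. Each gene is represented by its probe of highest mean signal, and calls need a log2 ratio of at least 1 in size over 14282 genes on all 4 arrays. Where 1 side was not above background, a bound against the lowest signal above background is given. For a probe with 1 spot, the SD is the median of 52 or 53 10-spot probes of like signal. The 4 arrays limit the precision, no replicate exists and no p-value was computed.

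Members, lists and markers were chosen with earlier results of these data known. Values on every array are given for members with a called probe ratio, for HSF1, HSF2 and SP1, and for the brightest member of each role. Genes of other lists are named where called, and HSPA5 was named after its values were seen. Alternatives were other scalings, the authors' value table, other probe rules, filters and thresholds. The planned normexp correction of mean signals was not run because the files used here hold median signals, which were corrected with an offset of 50 instead, as chosen after seeing the data. The planned comparison of protein sequences was not run. The counting was tested on simulated data for CoCl2 in NS-si cells, where 200 of 200 planted probes were recovered and 1 other of 41000 was called. Each simulated array was the NS-si array with a constant shift and small noise per spot. The planted changes were well past 2-fold and not in dim probes, so their recovery could hardly fail. Differences between cultures were not simulated, so this gives no rate of false calls for the real arrays. Python 3.11.15, numpy 2.4.6, pandas 2.3.3, matplotlib 3.10.9, R 4.3.3 and limma 3.58.1 were used.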

Additional observations from a re-analysis of the deposited data

Results flagged for a closer look

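Of the 63 member probes well above background on all 4 arrays, 6 had CoCl2 ratios of opposite sign in the 2 kinds of cells. Each of these ratios was past 2 SD between spots. How many of all probes did the same was not counted. With 1 array per condition the differences were not tested. HSPB1 (A_32_P76247), the small heat shock protein, had a log2 CoCl2 ratio of -0.12 in control and 0.83 in Sp1-silenced cells, a difference of 0.955. CRYAB had -0.38 and 0.19, a difference of 0.563. DNAJA2, a J-domain protein, had -0.09 and 0.33, a difference of 0.417.

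The other 3 probes belong to the cytosolic HSP90 genes and, with the scaling used here, differ in the opposite direction. HSP90AA1 had 0.74 in control and -0.20 in Sp1-silenced cells on A_23_P162874, a difference of -0.940, and 0.66 and -0.64 on A_24_P145377, a difference of -1.30. The main probe of HSP90AA1 had 0.66 and 0.75. HSP90AB1 had 0.09 and -0.33 on A_24_P170295, a difference of -0.419, while its main probe had 0.56 and 0.69. Before scaling, A_24_P170295 went with CoCl2 from 3997 to 3642 intensity units in NS-si cells and from 3040 to 2836 in Sp1-si cells. A_23_P162874 went from 18541 to 26567 and from 21760 to 22251. The opposite signs of A_24_P170295 and A_23_P162874 therefore depended on the scaling. A_24_P145377 went from 27160 to 36703 and from 30247 to 22690, so its signs were opposite before scaling too.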

How the results depend on the processing

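The 44 probe ratios of members past 2-fold, 41 of them between arrays and the rest differences of CoCl2 ratios, gave 308 values under the alternatives, all 308 of the same sign and 26 of them under 1 in size. These ratios were picked for being past 1, and no setting shifted the median of all probes by more than 0.45. A change of sign was therefore hardly possible, and the equal signs say little about stability. HSPA6 ranged from 2.89 to 4.44 in NS-si and from 5.77 to 7.45 in Sp1-si cells, and its difference from 2.80 to 3.27. CHORDC1 and HSPA13 reached down to 0.80 and HSPA1L to 0.75 in NS-si cells. SERPINH1 in Sp1-si against NS-si cells with CoCl2 reached -0.74, HSPA4L -0.84 and CRYAB 0.89.

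Medians over the members moved by more than the spread between spots as follows. Without scaling they were 0.101 for CoCl2 in NS-si cells, 0.558 in Sp1-si cells, -0.151 for Sp1-si against NS-si cells, 0.444 with CoCl2 and 0.539 for the difference of CoCl2 ratios, where 6 genes were called. The median of all probes shifted with them, by -0.23, 0.23, -0.06, 0.40 and 0.45. With median scaling, which shifted all probes by 0.11, 0.11 and 0.10 there, the medians were 0.439 for CoCl2 in Sp1-si cells, 0.158 for Sp1-si against NS-si with CoCl2 and 0.186 for the difference, with 3 genes called. Quantile normalization gave 0.270, 0.376, -0.0574, 0.0937 and 0.129 in the order above. The authors' value table gave 0.250, 0.280, -0.0581 and 0.110 for the first 4. Normexp gave 0.294 for CoCl2 in NS-si cells and -0.0478 for Sp1-si against NS-si cells, and the percentile over probes above background on all arrays gave 0.296 for the former. The mean over the probes of a gene gave -0.182 for Sp1-si against NS-si cells and turned the comparison with CoCl2 to -0.110; the cause was not tested. A filter on any of the arrays compared, or none, called 3 genes for the difference, through more genes at background. At 1.5-fold the counts were 17, 16 and 9 for the first 3 comparisons, 4 for the difference and 87 for probe ratios. The shares of all genes were not counted under any of these alternatives, so the counts have none beside them. Signals near background limit HSPB2, HSPB3, HSPB7 and HSPB8, where spots differ by an SD near 0.3. No paired analysis was possible because each condition has 1 array.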
